A study of Homo sapiens with 8 samples.

Results

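The high mobility group (HMG) genes encode small, abundant chromatin proteins, and their mRNA levels were followed here after depletion of PRMT9, an arginine methyltransferase. The 10 genes are HMGB1, HMGB2 and HMGB3, HMGA1 and HMGA2, and HMGN1 to HMGN5. They were taken by symbol from the 57992 genes of the Molm13 table, and all 10 were found by the same gene ID among the 58174 genes of the THP1 table. Molm13 and THP1 are human acute myeloid leukemia (AML) lines of monocytic type. In each line, doxycycline-treated cells carried either a control hairpin (shCtrl, labeled WT) or a hairpin against PRMT9 (shPRMT9, labeled as the knockdown). Each of the 4 groups held 2 libraries of poly(A) RNA, 8 in all. The labels do not say whether the 2 libraries of a group came from separate cultures, so p-values measure only the spread between these libraries, and whether the numbers 1 and 2 of shPRMT9 also mark different hairpins is not stated there.

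HMG proteins fall into 3 structurally unrelated families. HMGB proteins carry HMG boxes that bend DNA, and HMGB1 released from dying cells also acts as a danger signal at receptors such as TLR4 and RAGE. HMGA proteins bind AT-rich DNA through AT hooks and are best known from embryonic and cancer cells. HMGN proteins bind the nucleosome core particle and compete with linker histone H1.

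Libraries held between 18720950 and 27356870 counts on genes. In Molm13, 332 and 289 counts fell on PRMT9 under shCtrl and 41 and 56 under shPRMT9. In THP1, it had 317 and 352 counts against 60 and 68. PRMT9 was therefore lower in all 4 shPRMT9 libraries, with log2 fold changes of −2.68 ± 0.14 (SE) in Molm13 and −2.29 ± 0.13 in THP1 (adjusted p = 1.16e-21 and 3.54e-14, the quasi-likelihood test of edgeR, adjusted by Benjamini-Hochberg, which is used throughout). Of 12 myeloid and monocytic marker genes, 11 exceeded 1 RPKM in the Molm13 shCtrl libraries and 10 in those of THP1, where MEIS1 and CD14 were below it. In THP1 with shPRMT9, 11 exceeded 1 RPKM, and MEIS1, the gene below it, had at most 20 counts in each library. No T cell (6) or erythroid and megakaryocytic (7) marker reached a mean of 1 RPKM in any group, and PAX5 was the only B cell marker of 7 that did, in both Molm13 groups and in THP1 with shPRMT9. The summed RPKM of the B cell markers was 4.62 to 4.84 in Molm13, and 0.972 to 1.05 with shCtrl against 1.80 to 2.32 with shPRMT9 in THP1, and its part in the HMG values was not tested. The THP1 library names include the letters OCI, a prefix of other leukemia and lymphoma lines.

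Several members have processed pseudogenes, copies of their mRNA inserted elsewhere in the genome, and the sequences below show how closely these resemble their source. HMGB1 (chromosome 13) and HMGB1P5 (chromosome 3) were identical at 513 of 516 aligned bases (99.4%). The 120 bases printed from coding base 127 of HMGB1 hold 1 difference, in capitals.
HMGB1: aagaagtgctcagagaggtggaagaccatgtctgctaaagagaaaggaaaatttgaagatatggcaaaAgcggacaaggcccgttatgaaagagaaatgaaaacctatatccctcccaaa
HMGB1P5: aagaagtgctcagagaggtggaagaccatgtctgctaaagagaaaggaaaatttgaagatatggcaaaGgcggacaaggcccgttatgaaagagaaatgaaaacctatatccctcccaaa

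HMGB2 (chromosome 4) and HMGB2P1 (chromosome 19) were 92.6% identical over 608 aligned bases. Their first 120 bases hold 10 differences, in capitals.
HMGB2: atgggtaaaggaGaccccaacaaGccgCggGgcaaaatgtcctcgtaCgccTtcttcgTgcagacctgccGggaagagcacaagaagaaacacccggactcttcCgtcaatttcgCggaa
HMGB2P1: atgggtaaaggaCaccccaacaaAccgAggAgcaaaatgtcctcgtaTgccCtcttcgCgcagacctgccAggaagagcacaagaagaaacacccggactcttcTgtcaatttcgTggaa

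HMGN2 (chromosome 1) and HMGN4 (chromosome 6) are members of the same family with coding sequences of the same length, 273 bases, and are shown because their levels differed in opposite directions between the lines. They were identical at 236 bases (86.5%), and the 37 differences are in capitals.
HMGN2: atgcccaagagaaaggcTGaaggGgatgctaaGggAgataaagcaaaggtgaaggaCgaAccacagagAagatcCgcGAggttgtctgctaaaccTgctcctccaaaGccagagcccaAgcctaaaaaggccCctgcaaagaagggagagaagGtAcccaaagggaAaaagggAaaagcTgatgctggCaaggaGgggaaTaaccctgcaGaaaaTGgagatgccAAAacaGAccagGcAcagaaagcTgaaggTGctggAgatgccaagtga
HMGN4: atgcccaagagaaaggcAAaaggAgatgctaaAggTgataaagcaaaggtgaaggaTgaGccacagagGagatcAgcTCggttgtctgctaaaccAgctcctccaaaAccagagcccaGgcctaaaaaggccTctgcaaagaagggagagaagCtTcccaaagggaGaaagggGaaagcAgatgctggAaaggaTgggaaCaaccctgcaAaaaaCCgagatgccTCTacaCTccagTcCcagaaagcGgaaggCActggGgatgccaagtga

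The share of a member's sequence that is not unique was measured with runs of 50 bases from its annotated transcripts. Of the runs in coding sequence, 82.5% in HMGB1 and 79.9% in HMGN2 also occurred in transcripts of another gene. The share was 39.7% for HMGN1, 24.2% for HMGB3 and 22.9% for HMGA1. By contrast, it was 8.42% for HMGA2, 1.72% for HMGB2 and 0 for HMGN3, HMGN4 and HMGN5. Over whole transcripts, HMGB1 shared 10.9% and HMGN2 13.9% of runs, whereas HMGN3 shared 13.6%, all of them with the antisense gene HMGN3-AS1. Because the strand setting of the counting is not given, reads of HMGN3 and HMGN3-AS1 cannot be told apart there.

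The tables for the lines differed in how many counts fell on pseudogenes. Processed pseudogenes of all genes held 4.19 to 4.51% of the counts in Molm13 libraries and 0.141 to 0.148% in THP1 libraries. For 7 members, pseudogenes by name held counts, and their share of the summed counts of gene and pseudogenes was larger in every Molm13 library than in any THP1 library. For HMGN2 the share was 15.2 to 17.3% in Molm13 and 2.16 to 2.56% in THP1. For HMGA1 it was 11.4 to 12.6% against 0.219 to 0.356%. HMGB2 had the smallest share of the 7 in Molm13, 3.54 to 4.43%, against 0.105 to 0.273% in THP1. HMGA2, HMGN4 and HMGN5 had no such rows. Pseudogene counts were added to their gene for the knockdown in each line and for the control levels, but not for the difference of the knockdown effect between the lines, where the part of the tables was not tested.

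**Figure D1:**
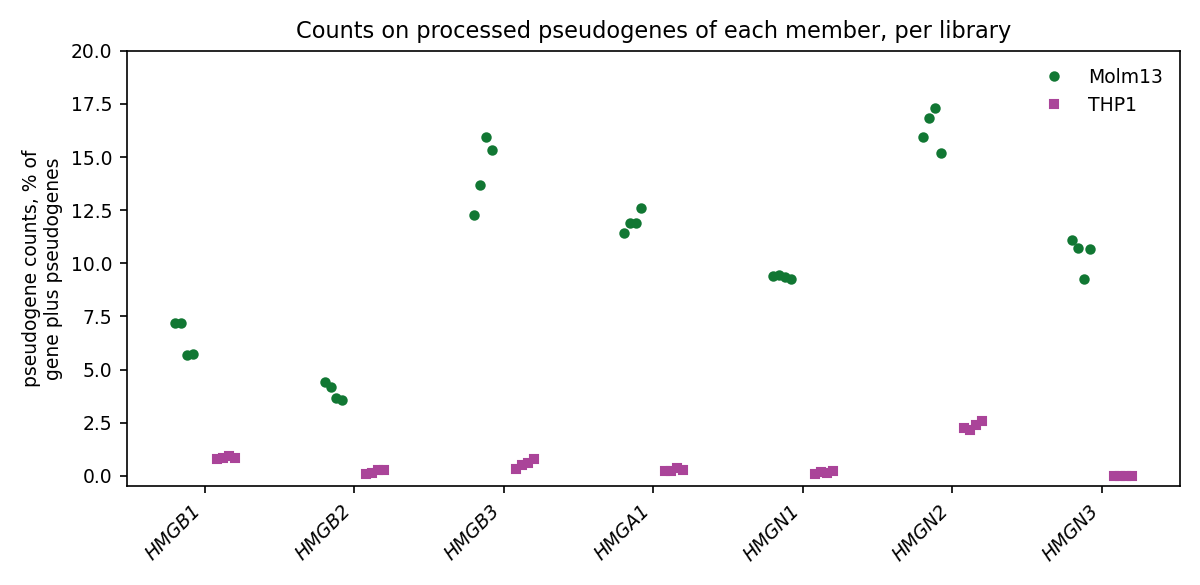
Counts on named processed pseudogenes as a percentage of the counts of the gene plus its pseudogenes (vertical axis), for the 7 members that have such rows. Each point is 1 library, with the 4 Molm13 libraries as circles and the 4 THP1 libraries as squares. All Molm13 points lie above all THP1 points, from 3.54% for HMGB2 to 17.3% for HMGN2.

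Levels of different genes were compared per length, as RPKM from the deposited exon lengths. HMGA1 was highest in the shCtrl cells of both lines. In Molm13, HMGA1 (165 ± 1.77 RPKM, SD, n = 2) stood next to HMGB2 (163 ± 0.254), followed by HMGN3 (80.0 ± 0.877). HMGN1 (49.8 ± 1.59) and HMGN4 (47.7 ± 1.62) came next and overlapped, as did HMGN2 (37.7 ± 1.12) and HMGB1 (36.4 ± 0.974). HMGB3 (14.9 ± 0.0404), HMGN5 (10.6 ± 0.868) and HMGA2 (2.11 ± 0.0627) were lowest. In THP1, the order was HMGA1 (375 ± 22.7), HMGN2 (298 ± 0.997), HMGN3 (189 ± 4.78), HMGB2 (119 ± 2.13), HMGN1 (73.5 ± 0.844), HMGB1 (68.6 ± 0.207), HMGB3 (25.8 ± 0.211), HMGN4 (17.1 ± 1.01), HMGN5 (8.34 ± 0.00111) and HMGA2 (0.0157 ± 0.00425), and no neighbors overlapped. HMGB1 is spread over 7723 exonic bases and HMGA2 over 15403, against 1014 for HMGN3, and each RPKM value depends on that length.

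**Figure D2:**
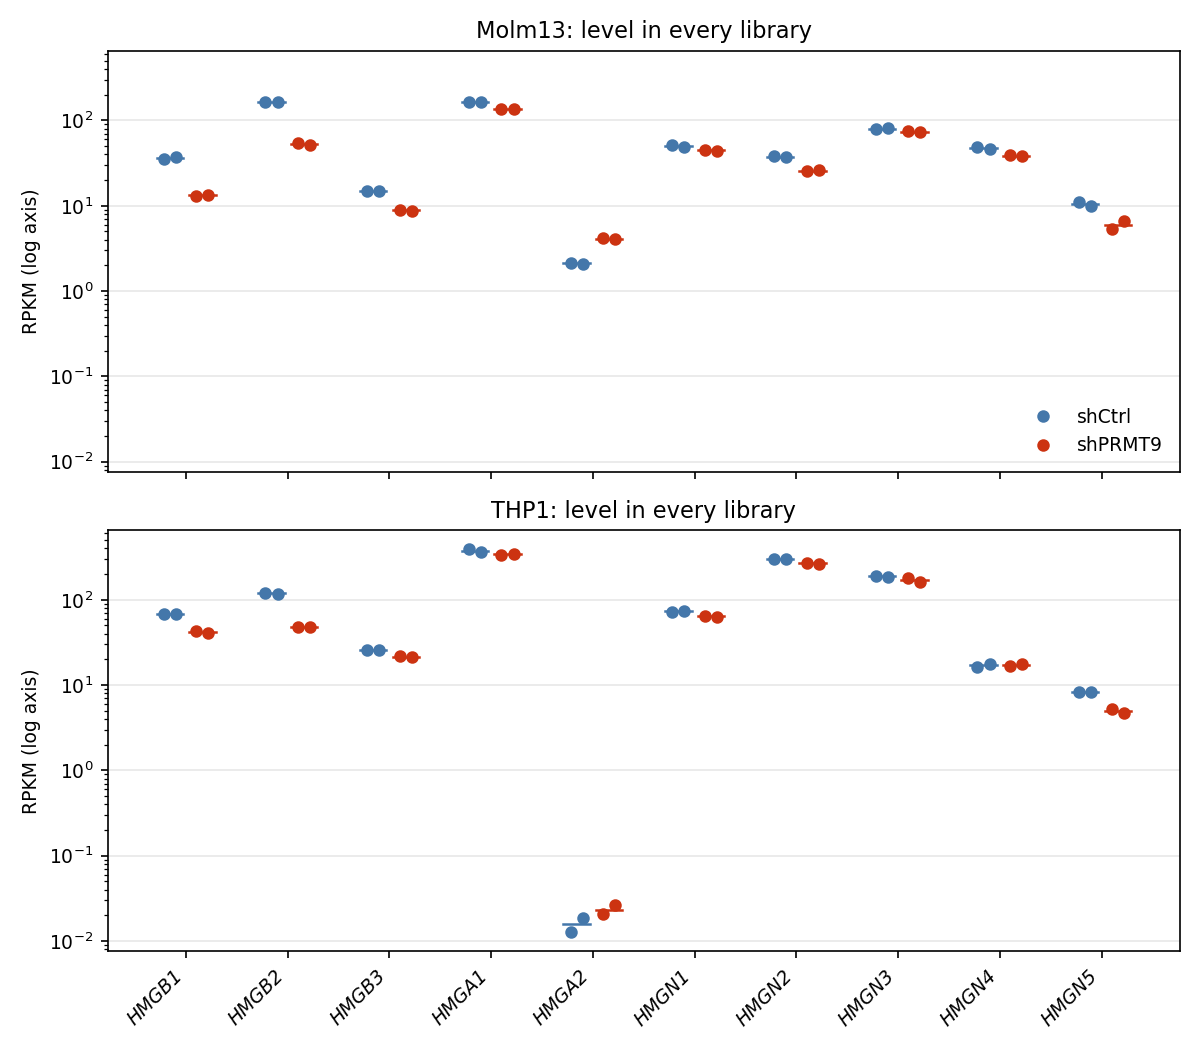
RPKM on a log axis for the 10 HMG genes in every library, with Molm13 in the upper and THP1 in the lower panel. Points are libraries (blue, shCtrl; red, shPRMT9) and short lines are means of 2. HMGB2 separates most clearly in both lines, and HMGA2 is near 2 to 4 RPKM in Molm13 and below 0.03 RPKM in THP1.

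Most HMG mRNAs were lower after PRMT9 knockdown in both lines. In Molm13, 9 of 10 members fell and 1, HMGA2, rose at an FDR below 0.05, where 33.5% of the 16446 genes tested fell and 33.4% rose. Their median log2 fold change was −0.42, against 0.00047 over all genes tested. For a differentially expressed gene (DEG), a fold change above 1.5 and an RPKM above 1 in at least 1 library were required in addition. HMGB1, HMGB2, HMGB3 and HMGN5 were then downregulated DEGs and HMGA2 an upregulated one (background, 11.3% down and 11.4% up). In THP1, 9 members had enough counts to be tested, and 8 fell and 0 rose at an FDR below 0.05 (background, 18.6% down and 19.0% up of 16294 genes), whereas HMGN4 did not pass. At an unadjusted p below 0.05, edgeR also had 8 that fell and 0 that rose, and DESeq2 had 7 and 0 at an FDR below 0.05. The median was −0.20 against −0.00063 over all genes tested. HMGB1, HMGB2 and HMGN5 were downregulated DEGs in THP1 and no member was an upregulated one (background, 2.39% down and 3.83% up). In bulk libraries, fewer cells of a type that expresses a gene cannot be told apart from less RNA per cell.

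**Figure D3:**
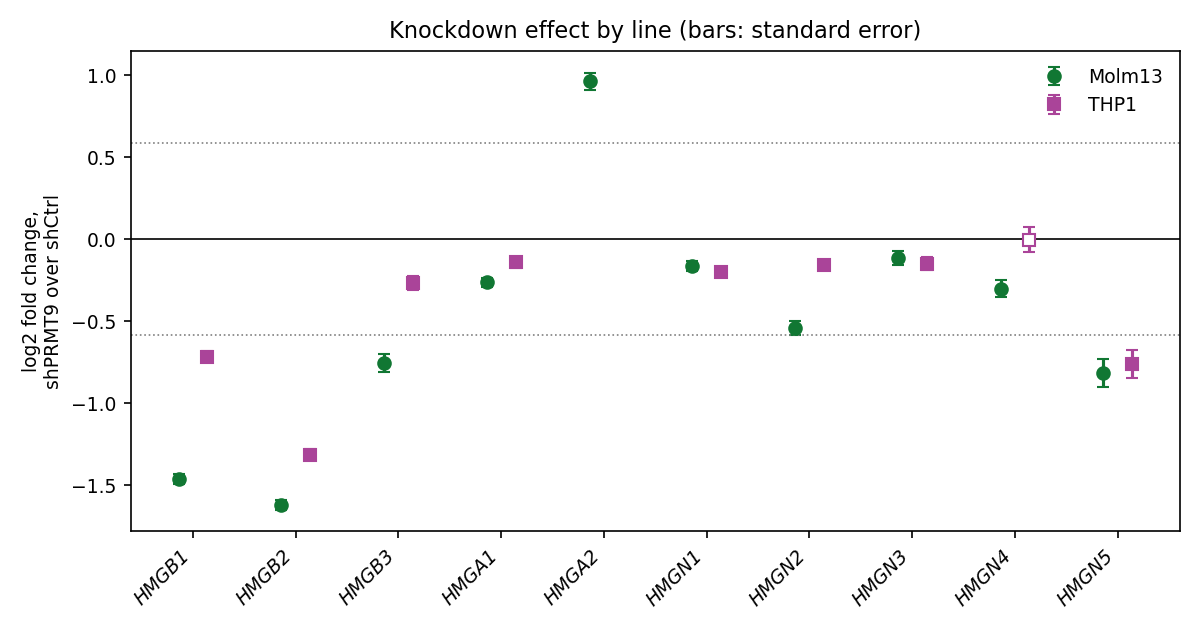
Log2 fold change of shPRMT9 over shCtrl with its standard error (bars) for each member in Molm13 (circles) and THP1 (squares). Filled symbols have an FDR below 0.05, the open symbol (HMGN4 in THP1) does not, dotted lines mark a fold change of 1.5, and HMGA2 was not tested in THP1. HMGB2 has the lowest value in both lines, −1.62 and −1.31.

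HMGB2 (ENSG00000164104; chr4:173331695-173335125, reverse strand, on GRCh38), whose product is abundant in dividing cells, fell most in both lines. In Molm13, it had 9234 and 8829 counts under shCtrl and 2827 and 3049 under shPRMT9. This was 452 ± 0.705 against 147 ± 5.56 CPM (SD, n = 2), a log2 fold change of −1.62 ± 0.029 (SE) and an adjusted p of 2.87e-38 in edgeR. In THP1, 8545 and 9040 counts stood against 3345 and 3286. There the level fell from 330 ± 5.90 to 133 ± 0.342 CPM (SD, n = 2), a log2 fold change of −1.31 ± 0.034 (SE) and an adjusted p of 4.04e-22 in edgeR. The level after knockdown was thus 0.326-fold that of the controls in Molm13 and 0.403-fold in THP1, with no overlap.

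HMGB1 (ENSG00000189403; chr13:30456704-30617597, reverse strand), the DNA-bending protein that also signals outside the cell, had 5630 and 5603 counts in the Molm13 controls and 1889 and 2191 after knockdown. In CPM, 281 ± 7.52 stood against 102 ± 1.39 (SD, n = 2). In THP1, its counts were 13587 and 14680 against 8355 and 7770, or 530 ± 1.60 against 323 ± 13.3 CPM (SD, n = 2). HMGB1 was lower in all 4 shPRMT9 libraries, by log2 fold changes of −1.46 ± 0.032 (SE) in Molm13 and −0.72 ± 0.032 in THP1 (adjusted p = 7.68e-35 and 1.24e-16, edgeR). Adding its 42 pseudogene rows gave −1.49 and −0.71.

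HMGB3 (ENSG00000029993; chrX:150980509-150990775, forward strand), which is known from hematopoietic progenitors, fell to 0.593-fold in Molm13 and 0.831-fold in THP1. Its counts were 1208 and 1162 against 670 and 735 in Molm13, and 2631 and 2822 against 2163 and 2081 in THP1. The libraries of the groups did not overlap in either line, but the fold change passed 1.5 in Molm13 and not in THP1. The log2 fold changes were −0.75 ± 0.053 (SE) and −0.27 ± 0.042 (adjusted p = 1.06e-16 and 7.65e-06, edgeR).

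The pseudogenes of the HMGB genes were counted as genes of their own. HMGB1P5 had 288 and 313 counts in the Molm13 controls and 68 and 89 after knockdown, a log2 fold change of −1.94 ± 0.12 (SE) with an adjusted p of 3.30e-18 in edgeR. HMGB2P1 had 428 and 387 against 108 and 112, a log2 fold change of −1.89 ± 0.10 (SE) with an adjusted p of 1.49e-20 in edgeR. Both moved in the direction of the genes they copy. Of the 9 HMGB pseudogenes tested in Molm13, 7 fell at an FDR below 0.05 (background, 33.5% of all genes tested). By contrast, HMGB3P22 rose from 15 and 19 to 32 and 30 counts (log2 fold change 0.86 ± 0.32 (SE), adjusted p = 0.0160, edgeR). The call for HMGB3P22 was lost under DESeq2 (adjusted p = 0.166) and without shCtrl replicate 1 (0.142 in edgeR) or shPRMT9 replicate 1 (0.153). How many of these counts came from reads of the parent genes was not tested. In THP1, HMGB2P1 was counted 9 to 11 times per library and HMGB1P5 12 to 20 times. There, HMGB1P20 fell (log2 fold change −1.27 ± 0.46 (SE), adjusted p = 0.0301, edgeR). HMGB1P5 (−0.38, adjusted p = 0.492) and HMGB1P10 (−0.61, adjusted p = 0.179) did not pass in edgeR.

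The HMGA genes moved in opposite directions in Molm13. HMGA1 (ENSG00000137309; chr6:34236873-34246231, forward strand) had 7883 and 7440 counts in the Molm13 controls and 5962 and 6808 after knockdown. On the CPM scale, 383 ± 4.12 fell to 319 ± 0.825 (SD, n = 2), a log2 fold change of −0.26 ± 0.026 (SE) with an adjusted p of 3.32e-12 in edgeR. In THP1, counts of 23327 and 23235 stood against 19604 and 20033, and 874 ± 52.9 against 793 ± 20.1 CPM (SD, n = 2). That decrease was small, with a log2 fold change of −0.14 ± 0.033 (SE) and an adjusted p of 0.00131 in edgeR. Without shCtrl replicate 1 of THP1 it was −0.080 with an adjusted p of 0.0647, and DESeq2 gave an adjusted p of 0.0927.

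HMGA2 (ENSG00000149948; chr12:65824131-65966295, forward strand), an architectural factor of embryonic cells, was the single member that rose. In Molm13, 678 and 623 counts under shCtrl stood against 1211 and 1321 under shPRMT9, or 32.5 ± 0.965 against 63.4 ± 1.89 CPM (SD, n = 2). Both shPRMT9 libraries lay above both controls, at a 1.95-fold higher level (log2 fold change 0.96 ± 0.054 (SE), adjusted p = 4.02e-20, edgeR). In THP1, it had 5 and 8 counts against 8 and 10 and was removed before the test because of its low counts.

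HMGA2 mRNA is the best-known target of the let-7 microRNAs, which pair with sites in its 3′ untranslated region through their seed (bases 2 to 8, in capitals below). Of 9 let-7 family members in the RefSeq table (GRCh38.p14), all share this seed, and let-7a and miR-98 are shown.
hsa-let-7a-5p: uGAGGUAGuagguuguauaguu
hsa-miR-98-5p: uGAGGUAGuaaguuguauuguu

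The reverse complement of the seed, CTACCTC, was searched on the transcript strand after the stop codon of the principal GENCODE transcript. HMGA2 held 4 matches in 3003 bases, a number reached by 0.0634% of 18943 genes. HMGA1 held 1, where 8.59% of genes held at least 1, and the other 8 members held none. The sites lie at chr12:65963298-65963320, chr12:65964533-65964555, chr12:65964945-65964967 and chr12:65965798-65965820 on GRCh38, on the forward strand, and are printed in this order with the match in capitals.
HMGA2 site 1: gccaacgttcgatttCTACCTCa
HMGA2 site 2: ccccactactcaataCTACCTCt
HMGA2 site 3: ttgacttgcaaagacCTACCTCc
HMGA2 site 4: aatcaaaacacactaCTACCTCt

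MicroRNA levels were not measured. Of 11 genes listed as regulators of HMGA2 and let-7, 8 were tested in each line. In Molm13, 2 rose and 4 fell (median log2 fold change −0.12), and in THP1, 0 rose and 3 fell (median −0.12). The background was 33.4% up and 33.5% down in Molm13, against 19.0% up and 18.6% down in THP1. The count that rose in THP1 was also 0 at an unadjusted p below 0.05 in edgeR and at an FDR below 0.05 in DESeq2. IGF2BP3, an RNA-binding protein that shields HMGA2 mRNA, rose from 61.1 ± 1.13 to 98.5 ± 4.15 CPM in Molm13 (SD, n = 2) and was near 0.46 CPM in THP1. IGF2BP2 rose in Molm13 (log2 fold change 0.37) and fell in THP1 (−0.22). The microRNA processing genes DROSHA and DGCR8 fell in both lines. Their log2 fold changes were −0.59 and −0.90 in Molm13 and −0.27 and −0.19 in THP1. Each change named here had an FDR below 0.05.

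Among the HMGN genes, HMGN5 fell most in both lines. HMGN5 (ENSG00000198157; chrX:81113701-81201942, reverse strand), which has the longest coding sequence of the HMGN genes at 849 bases, had 551 and 470 counts against 240 and 341 in Molm13. In THP1 it had 516 and 560 against 315 and 279. All 4 shPRMT9 libraries lay below the controls of their line. The log2 fold changes were −0.81 ± 0.085 (SE) in Molm13 and −0.76 ± 0.085 in THP1 (adjusted p = 1.87e-11 and 2.69e-08, edgeR). With each library left out in turn, the Molm13 value ranged from −0.98 to −0.66.

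HMGN2 (ENSG00000198830; chr1:26472450-26475972, forward strand) had 1970 and 1810 counts in the Molm13 controls and 1204 and 1390 after knockdown, a fall from 94.5 ± 2.81 to 64.9 ± 0.670 CPM (SD, n = 2). In THP1, counts of 19177 and 20710 stood against 17104 and 16351, or 747 ± 2.50 against 669 ± 14.6 CPM (SD, n = 2). The log2 fold change was −0.54 ± 0.043 (SE) in Molm13, just short of a fold change of 1.5, and −0.16 ± 0.029 in THP1 (adjusted p = 4.20e-15 and 5.85e-05, edgeR). With its pseudogenes added, the values were −0.55 and −0.16.

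HMGN4 (ENSG00000182952; chr6:26538405-26546254, forward strand) fell in Molm13, where 1270 and 1160 counts stood against 945 and 1025 (log2 fold change −0.30 ± 0.050 (SE), adjusted p = 9.86e-07, edgeR). In THP1, it had 535 and 631 counts against 531 and 558, and the libraries overlapped (−0.0028 ± 0.075, adjusted p = 0.981).

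HMGN1 (ENSG00000205581; chr21:39342315-39349647, reverse strand) had 5304 and 4858 counts against 4305 and 4755 in Molm13 and 9521 and 10500 against 8339 and 7979 in THP1. Its log2 fold changes were similar in size, −0.16 ± 0.029 (SE) and −0.20 ± 0.031 (adjusted p = 3.82e-06 and 7.36e-06, edgeR). HMGN3 (ENSG00000118418; chr6:79201245-79234738, reverse strand) had 1643 and 1599 counts against 1422 and 1576 in Molm13 and 5001 and 5236 against 4545 and 4110 in THP1. It fell by 0.11 on the log2 scale in Molm13 (SE 0.043, adjusted p = 0.0186, edgeR) and by 0.15 in THP1 (SE 0.039, adjusted p = 0.00319). DESeq2 gave an adjusted p of 0.157 for HMGN3 in Molm13, and the call was also lost without shCtrl replicate 2 (0.0854), shPRMT9 replicate 1 (0.0503) or shPRMT9 replicate 2 (0.189) of that line. In THP1 it was lost without shPRMT9 replicate 2 (0.11).

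On the CPM scale, both shPRMT9 libraries lay below both controls for 9 members in Molm13 and 8 in THP1. They lay above both controls for HMGA2 in Molm13. In THP1, HMGA2 was not tested. There, shCtrl replicate 2 and shPRMT9 replicate 1 each held 8 counts of it and were apart only after scaling (0.288 against 0.318 CPM). Of all genes tested, 81.9% in Molm13 and 66.0% in THP1 did not overlap between the groups, in either direction.

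Whether the size of the change differed between Molm13 and THP1 was tested as an interaction in 1 fit of all 8 libraries. The difference, THP1 minus Molm13 on the log2 scale, passed an FDR of 0.05 for 6 members, in each case toward a less negative value in THP1 (22.8% of 19288 genes differed in this direction and 19.4% in the other). It was largest for HMGB1 (0.76 ± 0.045, SE, adjusted p = 2.10e-27, edgeR). HMGB3 followed with 0.50 ± 0.069 and HMGN2 with 0.40 ± 0.049. For HMGB2 the difference was 0.32 ± 0.045, for HMGN4 0.31 ± 0.091 and for HMGA1 0.14 ± 0.040. DESeq2 lost the calls for HMGN4 (adjusted p = 0.0501) and HMGA1 (0.0909). The call for HMGN4 was also lost without Molm13 shPRMT9 replicate 2, THP1 shCtrl replicate 1 or THP1 shPRMT9 replicate 2 (adjusted p = 0.0603, 0.0944 and 0.0640 in edgeR). For HMGA1 it was lost with the libraries thinned to the total count of the smallest and without any of 5 libraries, namely Molm13 shCtrl replicate 1, either Molm13 shPRMT9 replicate, THP1 shCtrl replicate 2 and THP1 shPRMT9 replicate 2, where the adjusted p reached 0.455. The differences for HMGN1 (−0.023 ± 0.043), HMGN3 (−0.023 ± 0.057), HMGN5 (0.065 ± 0.13) and HMGA2 (−0.39 ± 0.54) did not pass. HMGA2, with the widest error, had at most 10 counts in a THP1 library. The lines were prepared as separate tables, so line and table cannot be told apart.

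The control levels also differed between the lines for all 10 members at an FDR below 0.05, where 40.1% of genes were higher and 42.7% lower in THP1. HMGN2 was 7.92-fold higher in THP1 (log2 difference 2.99 ± 0.032, SE), and 6.76-fold with pseudogene counts added. HMGN3 was 2.37-fold, HMGA1 2.28-fold, HMGB1 1.89-fold, HMGB3 1.73-fold and HMGN1 1.48-fold higher in THP1. With pseudogene counts added, these became 2.11-fold, 2.02-fold, 1.76-fold, 1.51-fold and 1.34-fold. HMGN4 was 2.78-fold lower in THP1, HMGB2 1.37-fold (1.43-fold with pseudogene counts added) and HMGN5 1.26-fold. HMGA2 was 130-fold lower, a value that rests on 5 and 8 counts in the THP1 controls. Its log2 difference ranged from −7.33 to −6.77 over the alternatives. HMGN2 and HMGN4, whose coding sequences are printed above, thus differed in opposite directions between the lines. Their order within a line depended on the scale. In RPKM, HMGN4 stood above HMGN2 in Molm13 and below it in THP1. In CPM, HMGN2 stood above HMGN4 in both (94.5 against 60.8 in Molm13, 747 against 21.8 in THP1). HMGN4 shares no run of 50 bases with another gene, whereas HMGN2 does, and the part of this in their levels was not tested. Among HMGN2 pseudogenes, HMGN2P8 had 0 to 1 counts in Molm13 libraries and 296 to 339 in those of THP1, and HMGN2P46 had 5 to 18 against 38 to 62.

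Promoter sequences were examined for the CCAAT box, the motif of the factor NF-Y, after HMGB1 and HMGB3 had been seen to fall. In 250 bases before the RefSeq start (GRCh38.p14), CCAAT or its reverse complement ATTGG occurred at least 1 time in 32.0%, 2 times in 9.53% and 3 times in 2.93% of 35116 promoter entries. The 8 members with an entry had 12 in all. The 3 entries of HMGB1 had 3, 1 and 0 matches, with 0 at the annotated start of the gene, and the 2 entries of HMGB3 had 3 and 0. The 2 entries of HMGA1 had 0 and 1. HMGN1 and HMGN3 had 2, HMGN2 had 1, and HMGN4 and HMGN5 had none. HMGB2 and HMGA2 were not examined, and the part of the motif in the knockdown effects was not tested. The entries with 3 matches, both inside the annotated gene, are chr13:30465937-30466186 (reverse strand) for HMGB1 and chrX:150983085-150983334 (forward strand) for HMGB3, with the motif in capitals.
HMGB1 promoter: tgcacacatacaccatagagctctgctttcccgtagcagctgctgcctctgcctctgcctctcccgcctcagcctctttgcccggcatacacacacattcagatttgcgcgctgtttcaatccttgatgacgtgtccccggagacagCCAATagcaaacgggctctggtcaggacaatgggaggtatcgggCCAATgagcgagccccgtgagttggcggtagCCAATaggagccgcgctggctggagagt
HMGB3 promoter: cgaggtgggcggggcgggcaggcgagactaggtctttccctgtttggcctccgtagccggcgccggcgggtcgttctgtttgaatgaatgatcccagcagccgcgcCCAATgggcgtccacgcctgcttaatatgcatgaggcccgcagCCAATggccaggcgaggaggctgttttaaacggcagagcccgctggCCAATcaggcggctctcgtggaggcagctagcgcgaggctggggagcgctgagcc

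Related genes were then described by list, each beside the median log2 fold change over all genes tested, 0.00047 in Molm13 and −0.00063 in THP1. Of 25 other genes listed as HMG-box relatives, such as SOX, TCF and chromatin factors, 20 were tested in Molm13. There, 8 rose and 10 fell at an FDR below 0.05 (background, 33.4% up and 33.5% down). The 10 include SUPT16H, which has no HMG box itself (log2 fold change −0.40). Of 22 tested in THP1, 4 rose and 6 fell (background, 19.0% up and 18.6% down). DESeq2 had 8 and 8 in Molm13 and 2 and 4 in THP1. The median log2 fold changes were −0.10 and −0.083. WHSC1 (NSD2, a histone methyltransferase) fell from 207 ± 7.60 to 111 ± 3.45 CPM in Molm13 (SD, n = 2) and from 383 ± 0.817 to 337 ± 9.23 in THP1. PBRM1, a subunit of the PBAF remodeling complex, and TFAM, which packages mitochondrial DNA, fell in Molm13, with log2 fold changes of −0.73 and −0.62. In THP1 their log2 fold changes were −0.081 and −0.018 and did not pass. HBP1, a transcriptional repressor of cell cycle genes, rose in Molm13 from 39.7 ± 0.418 to 91.5 ± 2.49 CPM (SD, n = 2, log2 fold change 1.21). Its rise in THP1 was 0.18 with an adjusted p of 0.0417 in edgeR and was lost under DESeq2 (0.207), with library size alone, without the filter, and without shCtrl replicate 2 or either shPRMT9 replicate.

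Linker histones, with which HMGN proteins compete for nucleosomes, were measured in part, since most replication-dependent histone mRNAs lack a poly(A) tail. Of 8 genes, the 3 tested in Molm13 all rose (background, 33.4% up), and their median log2 fold change was 1.84. H1F0, the linker histone of resting and differentiated cells, rose in Molm13 from 4.85 ± 0.0756 to 17.3 ± 0.155 CPM (SD, n = 2), and in THP1 from 160 ± 3.14 to 214 ± 3.81 CPM. HIST1H1C rose from 2.43 ± 0.463 to 21.0 ± 1.53 CPM in Molm13 and measured 13.5 ± 0.489 against 13.7 ± 0.364 in THP1. H1FX rose in Molm13 (log2 fold change 0.39) and fell in THP1 (−0.13), where the call was lost under DESeq2 and without shCtrl replicate 1 or shPRMT9 replicate 1. Of 5 tested in THP1, 1 rose and 1 fell (background, 19.0% up and 18.6% down), with a median of −0.13. HIST1H1E was not tested in Molm13 and had a log2 fold change of −0.78 in THP1 that did not pass (adjusted p = 0.123, edgeR).

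The list of receptors and ligands bound by extracellular HMGB1 held 14 genes. In Molm13, 9 were tested, and 6 rose and 1 fell (median log2 fold change 0.50), where 33.4% of all genes tested rose and 33.5% fell. In THP1, 12 were tested, and 7 rose and 1 fell (background, 19.0% up and 18.6% down), with a median of 0.53. ITGAM, a chain of the integrin Mac-1, rose in Molm13 from 30.1 ± 1.07 to 117 ± 0.493 CPM, and in THP1 from 23.0 ± 0.720 to 51.1 ± 1.21 CPM (SD, n = 2). HAVCR2 (TIM-3), which binds HMGB1 on dendritic cells, rose in Molm13 from 0.931 ± 0.346 to 1.99 ± 0.172 CPM, and in THP1 from 0.869 ± 0.400 to 4.06 ± 0.101 CPM. Its call in Molm13 was lost under DESeq2 (adjusted p = 0.0509) and without shCtrl replicate 1 (0.0512 in edgeR). CD14, a TLR4 co-receptor, rose from 0.901 ± 0.0520 to 4.76 ± 0.217 CPM in THP1 and was too low to be tested in Molm13. TLR4 itself, named here after its values were seen, was the 1 gene that fell in THP1, from 87.4 ± 1.98 to 65.9 ± 2.20 CPM (SD, n = 2, log2 fold change −0.41, adjusted p = 3.50e-08, edgeR). THBD, thrombomodulin, fell by 0.27 on the log2 scale in Molm13 and rose by 0.60 in THP1. DESeq2 left 3 of the 6 rising genes in Molm13. ITGAM and CD14 are also in the list of myeloid markers, whose summed RPKM moved from between 625 and 628 to 913 and 914 in Molm13 and from between 1370 and 1390 to between 2066 and 2152 in THP1. The part of this shift in the values of the receptors was not tested.

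Nuclear partners, the SET complex in which HMGB2 takes part among them, numbered 9. In Molm13, 2 of 6 tested rose and 4 fell (background, 33.4% up and 33.5% down), with a median of −0.35. In THP1, 1 of 7 rose and 2 fell (background, 19.0% up and 18.6% down), with a median of −0.012. In Molm13, 1 rose under DESeq2, without the filter, in 1 fit of all libraries and without shCtrl replicate 2. In THP1, 1 fell without shCtrl replicate 1. SET, a histone chaperone, fell in Molm13 from 510 ± 11.1 to 351 ± 1.06 CPM, and in THP1 from 513 ± 2.15 to 456 ± 7.40 CPM (SD, n = 2). The nucleoside diphosphate kinase NME1 fell in Molm13 (log2 fold change −0.60) and rose in THP1 (0.29). APEX1, a base excision repair endonuclease, rose by 0.26 in Molm13 and measured −0.012 in THP1, which did not pass. PRIM1, a DNA primase subunit, fell by 0.59 on the log2 scale in Molm13 and measured −0.097 in THP1, which did not pass.

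All 15 proliferation genes fell in Molm13, 12 of them as DEGs, with a median log2 fold change of −0.80. Of all genes tested there, 33.5% fell and 11.3% were downregulated DEGs. In THP1, 9 fell and 0 rose at an FDR below 0.05 (background, 18.6% down and 19.0% up), none as a DEG, with a median of −0.14. At an unadjusted p below 0.05, 1 rose in edgeR, and DESeq2 had 0 at an FDR below 0.05. Without shPRMT9 replicate 1 of THP1, 2 rose at an FDR below 0.05. MKI67 fell in Molm13 from 1094 ± 40.6 to 560 ± 11.4 CPM, and in THP1 from 1210 ± 5.67 to 1073 ± 18.8 CPM (SD, n = 2). TYMS, thymidylate synthase, fell by 1.14 and 0.27 on the log2 scale, CCNA2, cyclin A2, by 1.13 and 0.20. PCNA fell by 1.05 in Molm13 and measured −0.048 in THP1, which did not pass. HMGB2 is itself high in dividing cells, and these values moved with those of HMGB1 to HMGB3 in Molm13. In both lines, the fall of HMGB2 was larger than that of every proliferation gene of the list (−1.62 in Molm13 and −1.31 in THP1). The part of proliferation in the HMG values was not tested.

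**Figure D4:**
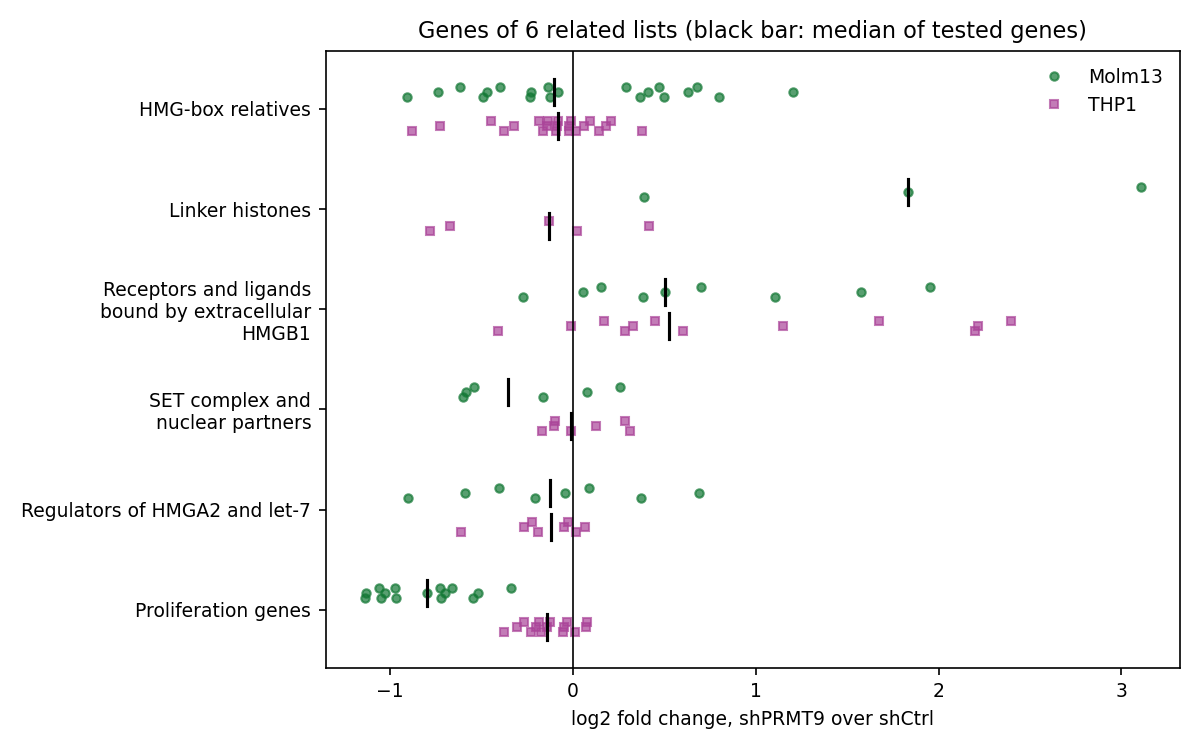
Log2 fold change of shPRMT9 over shCtrl (horizontal axis) for every tested gene of the 6 lists, with Molm13 as circles, THP1 as squares and the list's median as a black bar. Proliferation genes lie left of 0 in Molm13 (median −0.80) and near 0 in THP1 (median −0.14), and receptors and ligands of HMGB1 lie mostly right of 0 in both (medians 0.50 and 0.53).

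Genes whose pattern over the 8 libraries was most like that of the member of each family with the highest mean RPKM over all 8 libraries (HMGA1, HMGB2 and HMGN2) were found among 15258 genes, by the root mean square difference of centered log2 CPM. For HMGA1 they were RNPEPL1 (0.027), DTNB (0.039) and LRFN4 (0.058). For HMGB2 they were VPS26A (0.20), RPIA (0.22) and PRELID3B (0.22), and for HMGN2 they were TMA7 (0.031), KLC2 (0.082) and FAM133B (0.083). The 4 libraries of a line share its level and its table, and the 3 measures for HMGB2 were the largest of these.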

How the data were processed

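Poly(A) RNA-seq libraries of 2 AML lines were used, 2 per group. Per the labels, the authors used TopHat2 2.0.8, HTSeq 0.11.2, edgeR 3.30.3 and hg38. The authors deposited 1 table of unnormalized read counts for each line, in whole numbers. The annotation release and strand setting are not given in the sources used here. From these counts, each line was fitted alone in R 4.3.3 with edgeR 4.0.16 (TMM, filterByExpr, quasi-likelihood test, Benjamini-Hochberg adjustment), and the difference between the lines and between control levels in 1 fit of 8 libraries. DESeq2 1.42.0, other normalizations, filters and designs, and leaving out each library were tried as alternatives. SE was taken as the size of the log2 fold change over the square root of F. CPM used TMM factors, and RPKM the exon lengths of the Molm13 table. Likeness used log2(CPM + 0.5) and genes with a mean of at least 20 counts. Depth limits genes with few counts, such as HMGA2 in THP1. Replicate libraries differed by more than sampling noise (chi-square per gene 1.35 to 2.17). All 10 members had the same start and end in GENCODE 29, whose transcripts gave the coding and pseudogene sequences. Promoters and microRNAs are from RefSeq. Pseudogenes were matched by name, and those with more than 20 counts in a library could be named.

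The members, gene lists and tests were chosen with earlier results of these data known. Named genes are all members, PRMT9, at most 4 tested genes per list with the smallest FDR in either line, and 3 genes most like the member of each family with the highest mean RPKM. On simulated counts with 200 genes changed 2-fold, the test called 185 in Molm13 (with 12 unchanged genes), 194 in THP1 (13) and 162 for the difference between the lines (7). The changed genes had a mean of at least 20 counts and were few beside the 16376 genes in that step for Molm13. All genes were given the same dispersion. Error rates in the libraries themselves may therefore differ.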

Additional observations from a re-analysis of the deposited data

Results flagged for a closer look

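For 6 HMG genes, the effect of PRMT9 depletion differed between Molm13 and THP1 by the interaction test of edgeR. The difference (THP1 minus Molm13, log2) was 0.76 for HMGB1, 0.50 for HMGB3, 0.40 for HMGN2, 0.32 for HMGB2, 0.31 for HMGN4 and 0.14 for HMGA1. The last 2 calls were lost under DESeq2 (adjusted p = 0.0501 and 0.0909), HMGN4 also without any of 3 libraries and HMGA1 without any of 5, with values down to 0.21 and 0.046. Of the 19288 genes tested, 22.8% differed in this direction. The pseudogene share of the tables and the fall of the proliferation genes also differed between the lines, and their part was not tested.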

How the results depend on the processing

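With a fold change above 2 in place of 1.5, 2 members in Molm13 (HMGB1 and HMGB2) and 1 in THP1 (HMGB2) were DEGs. Under each other alternative the DEG counts were 5 and 3. Members at an FDR below 0.05 numbered 9 to 10 in Molm13 and 7 to 8 in THP1 when each library was left out, and 9 and 7 under DESeq2. For the difference between the lines, the number ranged from 4 to 6 without single libraries and was 4 under DESeq2. The replicate block left 10 members at an FDR below 0.05 in Molm13, 8 in THP1, 6 for the difference between the lines and 10 for the control levels, and changed no call of a member. Same-numbered libraries did not deviate together (correlation −0.087 in Molm13, −0.015 in THP1 and −0.0083 between control libraries), so the numbers were not taken as pairs.

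Directions turned only for values that did not pass the test. HMGN4 in THP1 was 0.0026 in 1 fit of all libraries and ranged from −0.063 to 0.058 when each library was left out. Likewise, the difference between the lines ranged from −0.12 to 0.0011 for HMGN3 and from −0.11 to 0.20 for HMGN5. In THP1, the values without single libraries ranged from −0.034 to 0.0046 for APEX1, from −0.94 to 0.52 for IGF2BP3, from −0.060 to 0.021 for TFAM and from −0.017 to 0.056 for HIST1H1C, which was −0.0045 with library size alone. TLR4 in Molm13 ranged from −0.069 to 0.40. The cause was not tested. Counts per library limit what can be said of HMGA2 in THP1.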
